A study of Mus musculus with 4 samples.

Results

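Hearts of mice that had received N-acetyl cysteine (NAC) before cyclophosphamide (CY) were compared with hearts of mice that had received CY alone, on the array labelled NAC + CY and the array labelled CY. These are 2 of the 4 arrays of the series. Female C57BL/6J mice, 6 weeks old per the labels, were injected intraperitoneally once daily, in 2 doses, and heart RNA was taken 3 h after the last dose. The CY mice received 400 mg/kg CY and no NAC. The NAC + CY mice received the same dose of CY and in addition NAC at 200 mg/kg, which the methods place 2 h before each CY injection. The other arrays hold hearts of mice given normal saline (NS) or 5 mg/kg acrolein and no CY, and they are used here for levels. The series text speaks of several independent studies, but 1 array per condition was analysed, and nothing in the labels says how many hearts an array holds. The differences below therefore lack a replicate check, and p-values are not given.

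CY is a DNA-alkylating prodrug that liver enzymes activate, and acrolein is a reactive aldehyde released in the process. NAC supplies cysteine, the limiting building block of glutathione, the thiol with which cells conjugate acrolein and reduce peroxides. The transcription factor Nrf2 responds to thiol-reactive compounds by switching on genes for glutathione synthesis, glutathione transferases and related enzymes.

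Of 56605 probes, 29350 were well above background on at least 1 of the CY and NAC + CY arrays, and they measured 15692 genes. Of these probes, 26987 were well above background on both arrays, 1266 on NAC + CY alone and 1097 on CY alone. A signal is the quantile-normalized processed intensity of a probe, in arbitrary units, and the signals of different probes are not comparable. The Z-score sets the log2 ratio of a probe, NAC + CY over CY, against 200 probes of similar signal: it counts by how many of their SDs the ratio departs from their mean. Calls of higher genes required both Z ≥ 2 and a ratio ≥ 1.5, and calls of lower genes both Z ≤ -2 and a ratio ≤ 0.66. A gene that only 1 of the arrays measured above background has a bound in place of a fold ("at least N-fold"), taken against the dimmest signal still well above background on the other array, which was 12.8 on CY and 12.5 on NAC + CY.

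The heart muscle genes marked both arrays as heart. The myosin heavy chain Myh6 had signals of 250600 on CY and 260450 on NAC + CY, and the troponin Tnnt2 238120 on each. All 13 genes of a ventricular muscle list were well above background on both arrays. The control genes Actb (-0.34), Gapdh (0.01), Tbp (-0.26) and Hprt (-0.06), given as log2 ratios, were not called. The median log2 ratio of all genes was 0.02, with quartiles of -0.17 and 0.19, and repeated spots of a probe on the 2 arrays varied with SDs of 0.072 and 0.078 log2 units.

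By at least 1 probe, 313 genes (1.99%) were called higher in the NAC + CY heart and 567 (3.61%) lower. By the brightest probe of each gene, which is used for every named gene and gene list below, 287 (1.83%) were higher and 529 (3.37%) lower. These 2 shares are the background for the counts of the lists. Ratios of at least 16-fold were found for 50 higher and 8 lower genes. These 2 counts use signals as measured, also those below background, and not bounds, so they do not compare the reach of the calls. Of the 287 higher genes, 68 were well above background on the NAC + CY array and on none of the others. Of the 529 lower genes, 39 were well above background on CY alone among the 4 arrays. Most genes named below were chosen by the ratio of NAC + CY over CY, so a high or low CY signal counts in the choice. Which of these arrays lies nearer to NS or acrolein is therefore given as a description and was not tested.

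**Figure D1:**
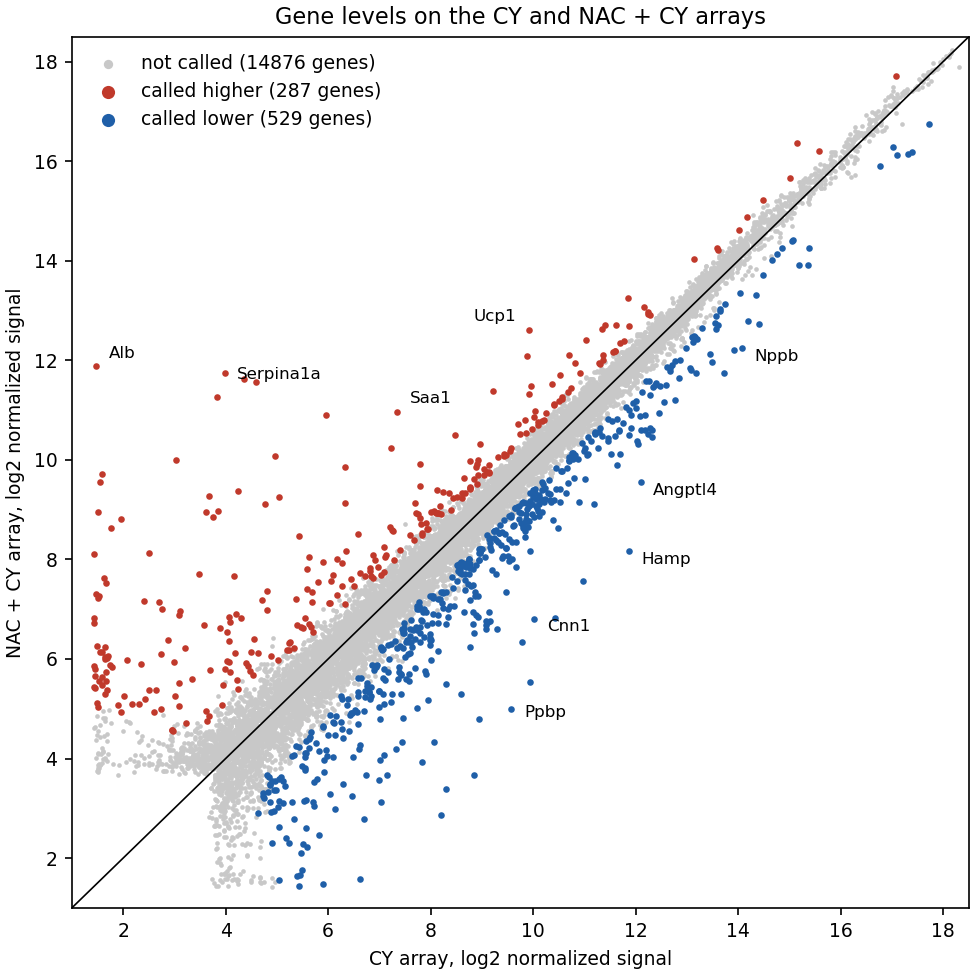
Log2 normalized signal of 15692 genes on the CY array (horizontal axis) and on the NAC + CY array (vertical axis), 1 point a gene by its brightest probe, with the line of equal signal. The points farthest above the line sit at the left, at low signal on CY, and of the 287 genes called higher 178 were well above background on all 4 arrays; the 529 called lower run along the whole signal range.

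The genes with the highest Z-scores were those of liver secretory proteins. Alb, which encodes serum albumin, was measured by a probe at chr5:90905550-90905609 (mm9). Its signals were 4.6 on NS, 2.8 on CY, 3767 on NAC + CY and 2.7 on acrolein, at least 294-fold higher on NAC + CY than on CY. Only the NAC + CY array was above background. The same pattern held for the fibrinogen chains Fgg, at least 65.7-fold higher with a signal of 843 on NAC + CY, and Fgb, at least 58.3-fold higher with a signal of 748. The alpha-1 antitrypsin gene Serpina1a was near background on the others (31.7 on NS, 15.8 on CY and 16.3 on acrolein) and 3425 on NAC + CY, a log2 ratio of 7.76.

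The other leading genes are known from liver too. Bhmt, the betaine-homocysteine methyltransferase of liver and kidney, was at least 79.8-fold higher, and Ambp, the precursor of alpha-1 microglobulin, at least 34.9-fold. The acute-phase apolipoprotein Saa2 had a log2 ratio of 7.27 and Saa1 one of 3.62, with Saa1 signals of 97.1, 163, 2005 and 92.5 on NS, CY, NAC + CY and acrolein. Of 10 measured Mup genes, which encode the major urinary proteins that liver secretes, 9 were called higher. The Mup and Serpina1 genes are near-identical copies, and a probe of 1 copy may also read the others.

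Of 54 measured genes of a hepatocyte list, 41 were higher and 1 was lower, with a median log2 ratio of 3.27, and of 2.17 with genes below background set at their bound. The summed signal of the list was 5581 on NS, 12621 on CY, 35793 on NAC + CY and 4822 on acrolein. On CY 23 of the 54 were well above background, and on NAC + CY all 54, so that 31 members were kept through the NAC + CY array alone and could only be higher there. Among the 19 members above background on all 4 arrays, 12 were higher and 1 lower, with a median of 1.22. The lower member was Ahsg, which encodes fetuin-A, with 6965 on CY and 4071 on NAC + CY (log2 ratio -0.77). Bright probes weigh most in the summed signal, and Ahsg alone held 6965 of the 12621 on CY. The median log2 ratio of CY over NS was 0.0016 for the list. The labels name heart as the only tissue, and the part of liver RNA in any result below was not tested.

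**Figure D2:**
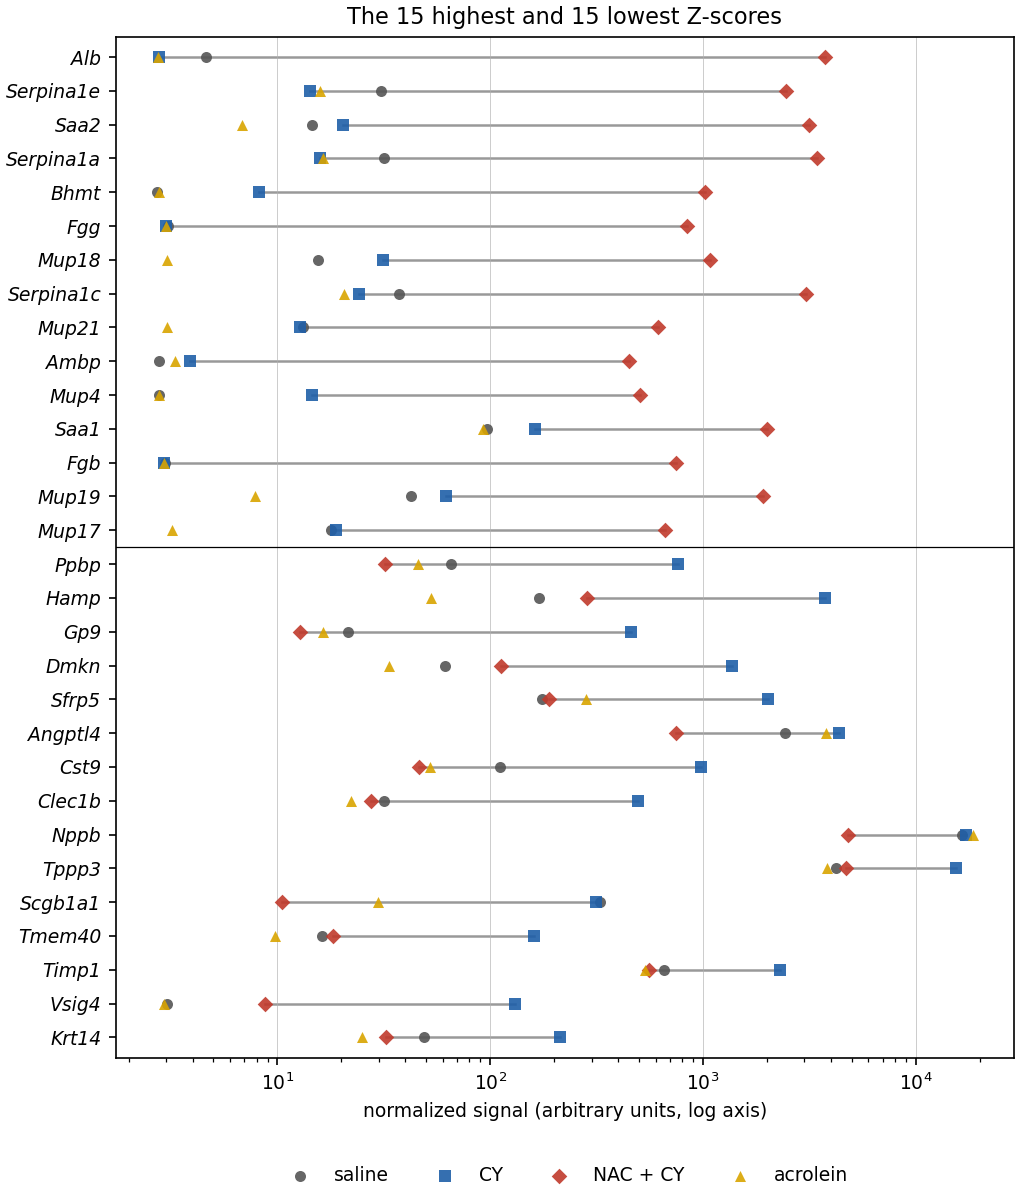
Normalized signal on the 4 arrays (horizontal log axis) of the genes with the 15 highest Z-scores, above the line, and the 15 lowest, below it, with 1 array per condition and a bar joining CY and NAC + CY. NAC + CY stands alone at the right for the upper genes, and CY stands at the right for the lower ones except Nppb and Scgb1a1, which were about as high on NS; Angptl4 on acrolein came close to CY.

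Drug-metabolising and clotting genes, many of them also made in liver, held further higher calls. Of 33 measured cytochrome P450 and flavin monooxygenase genes, 9 were higher and 3 lower, median 0.22. Cyp2a5 was at least 21.6-fold higher and Cyp3a41a at least 21.7-fold, both below background on the other arrays. Cyp2b10, a drug-inducible P450 related to the enzymes that activate CY, had signals of 32.3 on NS, 148 on CY, 403 on NAC + CY and 32.1 on acrolein. It was the 1 higher gene among the 22 of the list that were well above background on all 4 arrays. Cyp2s1 (-1.81), Fmo2 (-1.04) and Cyp1b1 (-0.80) were lower. Of 26 coagulation and fibrinolysis genes, 10 were higher and 2 lower; among the 13 of them above background on every array, none was higher.

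Fat genes were higher. Of 25 measured genes of white and brown fat cells, 12 were higher and none lower, with a median of 0.69. Among the 21 above background on all 4 arrays, 8 were higher and the median was 0.38. Ucp1, the uncoupling protein with which brown fat makes heat, had signals of 635 on NS, 962 on CY, 6287 on NAC + CY and 153 on acrolein, a log2 ratio of 2.71. Otop1, a proton channel found in brown fat, had 2.55 by its brightest probe and 1.28 by the median of its probes, and the carbonic anhydrase Car3 had 2.04 and 1.58. The NAC + CY array was the highest of the 4 for each of these. The lipid-synthesis genes Fasn (1.41) and Elovl6 (1.52) and the adipokine Adipoq (1.07) were higher too. The summed signal of the list was 67748 on NS, 66052 on CY, 97183 on NAC + CY and 60718 on acrolein, and the amount of fat attached to each heart was not recorded in the labels, nor was its part in the result tested. In whole hearts, more cells of a type and more RNA per cell cannot be told apart.

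Platelet genes (Ppbp, Gp9 and Clec1b), mesothelial genes (Dmkn and Sfrp5) and Hamp were among the 15 lowest Z-scores. Ppbp, the platelet chemokine CXCL7, had signals of 65.5 on NS, 763 on CY, 32.0 on NAC + CY and 45.8 on acrolein, a log2 ratio of -4.57. Gp9, a subunit of the platelet receptor for von Willebrand factor, was at least 36.0-fold lower on NAC + CY, and the platelet receptor Clec1b had a log2 ratio of -4.16. On these 3 platelet genes CY was the highest array, and NAC + CY lay closer to NS and acrolein than to CY. They were picked for a low ratio of NAC + CY over CY, which a high CY signal favours. Of 14 platelet genes, 9 were lower and none higher, with a median of -2.69, and of -1.83 with genes at their bound. On CY all 14 were well above background and on NAC + CY 7. The rest were kept through the CY array alone and could only be lower on NAC + CY. Among the 6 members above background on all 4 arrays, 5 were lower, with a median of -2.34. The summed signal was 3170 on NS, 8604 on CY, 2339 on NAC + CY and 3027 on acrolein. Whether blood left in the hearts differed was not tested.

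Hamp, which encodes the iron regulator hepcidin, made mainly in liver and also in heart, stands on the atrial list and had signals of 171 on NS, 3761 on CY, 287 on NAC + CY and 53 on acrolein. Its log2 ratio was -3.71, by a probe at chr7:31727490-31727549 (mm9). Hamp was thus lower on the NAC + CY array, as was Ahsg above, while 41 hepatocyte genes were higher. Its promoter is shown because hepcidin is a known target of STAT transcription factors, with the bases that match TTCNNNGAA in capitals. The stretch ends 1 base before the RefSeq start, at chr7:30944030-30944279 on the minus strand of GRCm38.p6, and the match begins 97 bases before the start.
Hamp: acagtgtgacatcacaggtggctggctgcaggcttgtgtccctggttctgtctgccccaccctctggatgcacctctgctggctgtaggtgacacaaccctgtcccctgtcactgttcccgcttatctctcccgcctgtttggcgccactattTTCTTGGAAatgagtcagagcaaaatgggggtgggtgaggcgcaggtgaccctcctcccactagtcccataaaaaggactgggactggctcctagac
The motif reads the same on both strands, and 7.02% of 32851 RefSeq promoter stretches of 250 bases hold it. The match is a description of these letters. Saa3 and Timp1, other genes of acute inflammation that were lower on NAC + CY, have no match in their stretches. They stand on a list of 17 acute-phase genes made outside liver, of which 3 were lower and 1, Hp, higher. The median was -0.43, and -0.07 for the 13 above background on all 4 arrays. The acute-phase genes Saa1 and Saa2, named above, were higher.

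Of 16 atrial muscle genes, 10 were lower and none higher, with a median of -0.92. The atrial myosin light chain Myl4 had signals of 59596 on NS, 217640 on CY, 110000 on NAC + CY and 74983 on acrolein, and Myl7, the regulatory light chain of the same myosin, and Sln, the atrial inhibitor of the calcium pump, had log2 ratios of -0.87 and -0.97. NAC + CY lay between CY and the arrays without CY on all of them. Bmp10, an atrial growth factor, was at least 8.28-fold lower, since 104 on CY stood against background on the other arrays. The atrial natriuretic peptide gene Nppa was not called (-0.41). The summed signal of the list was 316730 on NS, 830650 on CY, 504680 on NAC + CY and 395010 on acrolein. How much atrium each sample held was not recorded in the labels, and its part in the result was not tested.

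Of 19 mesothelial and epicardial genes, 16 were lower and none higher, with a median of -1.73. Dmkn, a secreted epithelial protein, had signals of 61.7 on NS, 1370 on CY, 113 on NAC + CY and 33.4 on acrolein, and Sfrp5, a secreted Wnt inhibitor, 176, 2020, 188 and 282. The surface protein Msln of mesothelium (-1.73), the keratins Krt19 (-2.40), Krt8 (-2.12) and Krt7 (-2.14) and the uroplakin Upk1b (-2.31) followed. The summed signal of the list was 4347 on NS, 15645 on CY, 4837 on NAC + CY and 2709 on acrolein. The Wnt inhibitors Dkk3 (-1.39) and Wif1 (-1.60) were lower as well, so that 3 of 9 secreted Wnt inhibitors were lower and none higher.

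Some genes of blood, connective tissue and vessel wall were also lower. Of 9 red cell genes, 6 were lower, among them the alpha globin Hba-a1, with signals of 167700 on NS, 172500 on CY, 74834 on NAC + CY and 129350 on acrolein, and Alas2, the first enzyme of haem synthesis in red cells (-1.35). Here NAC + CY was the lowest of the 4 arrays. The globin genes are near copies of each other and share signal. Of 22 fibroblast genes, 8 were lower and none higher, median -0.62. Col3a1, a fibrillar collagen, had signals of 5052 on NS, 4247 on CY, 1276 on NAC + CY and 4033 on acrolein. Col1a1 (-0.95), Col1a2 (-0.89) and Postn (-1.28) were lower likewise, the last not under 75th percentile scaling, and for Col1a1 and Col3a1 the CY array lay near NS. The contractile smooth muscle genes Cnn1 (-3.22), Tagln (-1.86) and Myh11 (-1.03) were lower, Myh11 not under the normexp background correction. Cnn1 had 121 on NS, 1042 on CY, 112 on NAC + CY and 120 on acrolein. The median of the 17 smooth muscle and pericyte genes was 0.08 all the same, with 4 lower and 1 higher. The higher one was Abcc9, which is counted again among the channel genes below. Of 30 endothelial genes 5 were lower, including Vwf (-1.10) and Nos3 (-0.80), the endothelial nitric oxide synthase, and none was higher. The median of the endothelial genes was 0.07, and 19 of the 30 had a ratio above 1, against 53.5% over all genes.

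Immune genes went both ways. Of 15 neutrophil genes 4 were higher and 1 lower, with a median of 0.58, and of the 7 above background on all 4 arrays 2 were higher, with a median of 0.09. Among the higher ones, the calprotectin subunits S100a8 and S100a9 had log2 ratios of 1.69 and 1.52, Retnlg 2.47 and the collagenase Mmp8 1.92. S100a9 had signals of 265 on NS, 999.9 on CY, 2875 on NAC + CY and 2211 on acrolein, so that NAC + CY and acrolein were the highest arrays. Camp, a granule peptide of neutrophil precursors, was at least 2.64-fold lower. Of 29 genes of tissue macrophages and monocytes 8 were lower and none higher, with Retnla (-2.33), Lgals3 (-1.73), Lyve1 (-1.37) and Vsig4, a complement receptor of resident macrophages, at least 10.4-fold lower. Of 9 genes of MHC class II and dendritic cells 5 were lower. The MHC class II chain H2-Ab1 had 4472 on NS, 1291 on CY, 636 on NAC + CY and 4439 on acrolein, and Cd74, the chain that guides it through the cell, followed with a log2 ratio of -0.96, a call that normexp did not keep. Both arrays with CY lay below those without it, and NAC + CY was the lowest. Cd207, the Langerhans cell lectin, was at least 23.5-fold lower. No gene was called among 12 measured genes of T and natural killer cells.

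**Figure D3:**
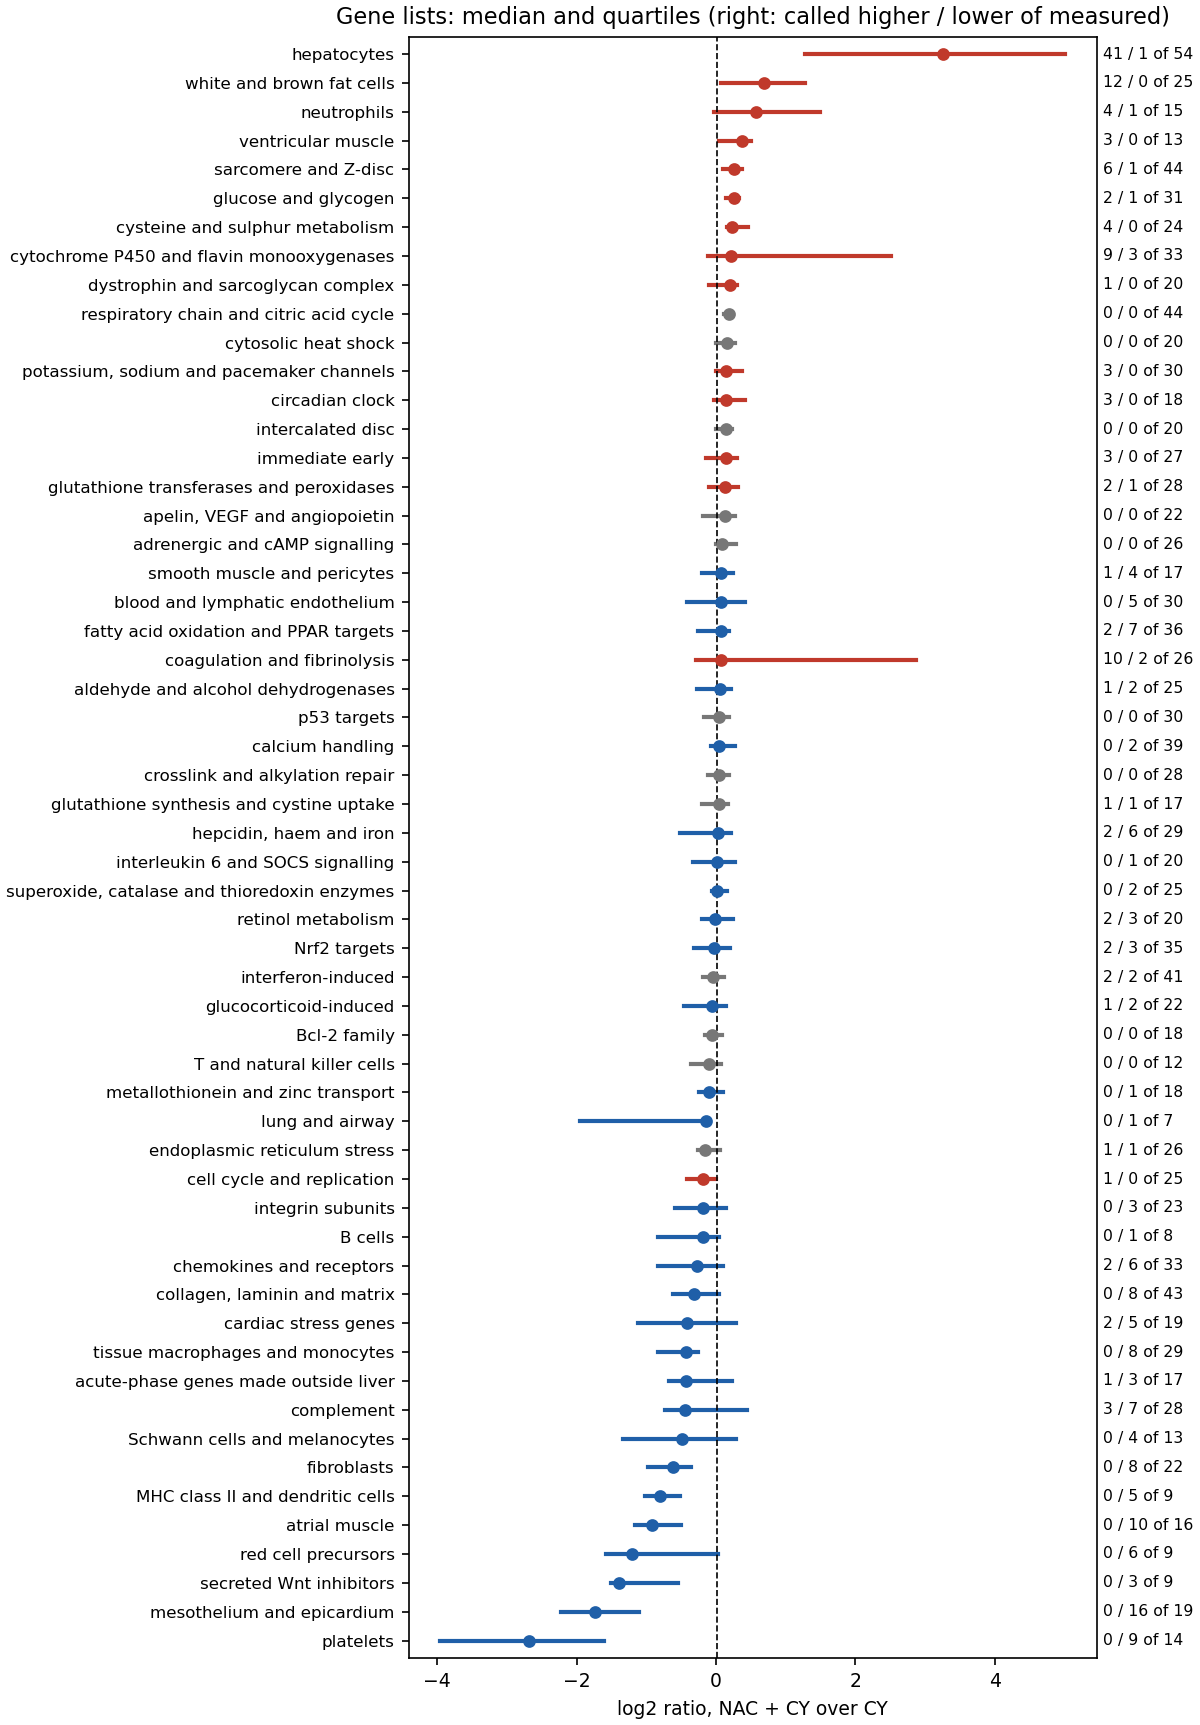
Median (point) and quartiles (bar) of the log2 ratio, NAC + CY over CY, for each gene list by brightest probe, with the number of members called higher and lower of those measured at the right and the median of all genes as a dashed line. Red marks lists with more higher than lower calls, blue the reverse and grey equal numbers. Hepatocytes stand at the top with 3.27 and platelets at the bottom with -2.69.

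Ratios of heart muscle genes were mostly small and above 1. Of 44 sarcomere and Z-disc genes, 6 were higher and 1 lower, a share of the higher ones above the 1.83% of all genes. Their median was 0.26, and 40 of the 44 ratios were above 1, against 53.5% over all genes. Of 13 ventricular muscle genes 3 were higher (Fhl2, Myh7 and Ckm, the muscle creatine kinase) and none lower, with a median of 0.38. Acta1, the skeletal alpha actin that heart muscle also makes, had signals of 7057 on NS, 2099 on CY, 5420 on NAC + CY and 6385 on acrolein. The slow myosin Myh7 had 3405 on NS, 4822 on CY, 7844 on NAC + CY and 4618 on acrolein. The first lay below NS on CY and nearer to it on NAC + CY, while Myh7 was highest on NAC + CY. Tcap, which caps titin at the Z-disc, had 260450 on NS, 139300 on CY, 216000 on NAC + CY and 218870 on acrolein. The Z-disc and actin genes Fhl2 (0.61), Fhod3 (0.74) and Myot (0.67) were higher and Pdlim3 (-1.03) lower. Fhl2 and Ckm were not called under 75th percentile scaling or in the authors' value table. Ttn, which encodes titin, had a log2 ratio of 0.36, Myh6 0.06, Myl2 0.06 and Actc1, the main cardiac actin, 0.22, and none was called.

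Genes of excitation and relaxation were mostly not called. Of 39 calcium-handling genes, 2 were lower and none higher, median 0.05. The lower ones were Sln, named above among the atrial genes, and Bin1, which shapes the transverse tubules (-0.65), not called under normexp. Ryr2, the release channel of the sarcoplasmic reticulum, had 6577 on NS, 2513 on CY, 2787 on NAC + CY and 7097 on acrolein, so that both arrays with CY were low. The calcium pump Atp2a2 (0.29) and its inhibitor Pln (0.38) were not called. Of 30 channel genes 3 were higher and none lower, among them Scn4b, a beta subunit of sodium channels, at 0.60 (not called under normexp) and Abcc9, the sulphonylurea receptor of the potassium channel that senses ATP, at 0.70. Abcc9 had 3178 on NS, 1217 on CY, 1979 on NAC + CY and 3429 on acrolein, so that both arrays with CY lay below those without it. No gene was called among 20 genes of the intercalated disc, 26 of adrenergic signalling or 44 of the respiratory chain and citric acid cycle. The median of the last list was 0.18, and 40 of its 44 ratios were above 1, as many as on the sarcomere list.

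Nppb, which encodes the B-type natriuretic peptide that stretched heart muscle secretes, was an exception. It had signals of 16600 on NS, 17220 on CY, 4834 on NAC + CY and 18610 on acrolein, a log2 ratio of -1.83 by a probe at chr4:147361247-147361306 (mm9), and both of its kept probes were called lower. NAC + CY was the 1 array that stood apart. Of 19 cardiac stress genes 5 were lower, namely Nppb, Timp1 (-2.06), Lgals3 (-1.73), Postn (-1.28) and Mybphl (-0.97), and 2 were higher, the sarcomere genes Acta1 and Myh7.

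Some fuel genes that PPAR transcription factors and fasting switch on were lower. Angptl4, a secreted inhibitor of lipoprotein lipase, had signals of 2444 on NS, 4376 on CY, 748 on NAC + CY and 3792 on acrolein, a log2 ratio of -2.55 by a probe at chr17:33911880-33911939 (mm9). Pdk4, the kinase that shuts off glucose oxidation, had 28487, 41953, 15354 and 31625 on the same arrays. For both, NAC + CY was the lowest of the 4. The acyl-CoA thioesterases Acot1 (-1.34) and Acot2 (-0.76) and the uncoupling proteins Ucp2 (-1.09) and Ucp3 (-1.04) were lower, and except for Acot2 they remained above NS on NAC + CY. In all, 7 of 36 genes of fatty acid oxidation and PPAR targets were lower and 2 higher, with a median of 0.07. The higher ones were the coactivators of mitochondrial genes Ppargc1b, with 2388 on NS, 500 on CY, 1272 on NAC + CY and 2499 on acrolein, and Ppargc1a (0.66). Of the 2 kept probes of Ppargc1b, 1 was called higher. The insulin-responsive glucose transporter Slc2a4 (0.74) and the hexokinase Hk2 (0.68) were higher too, and both lay nearer to NS on NAC + CY than on CY. Bdh1, the enzyme with which mitochondria interconvert the ketone bodies, had 1788 on NS, 942 on CY, 4366 on NAC + CY and 2688 on acrolein, a log2 ratio of 2.21.

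**Figure D4:**
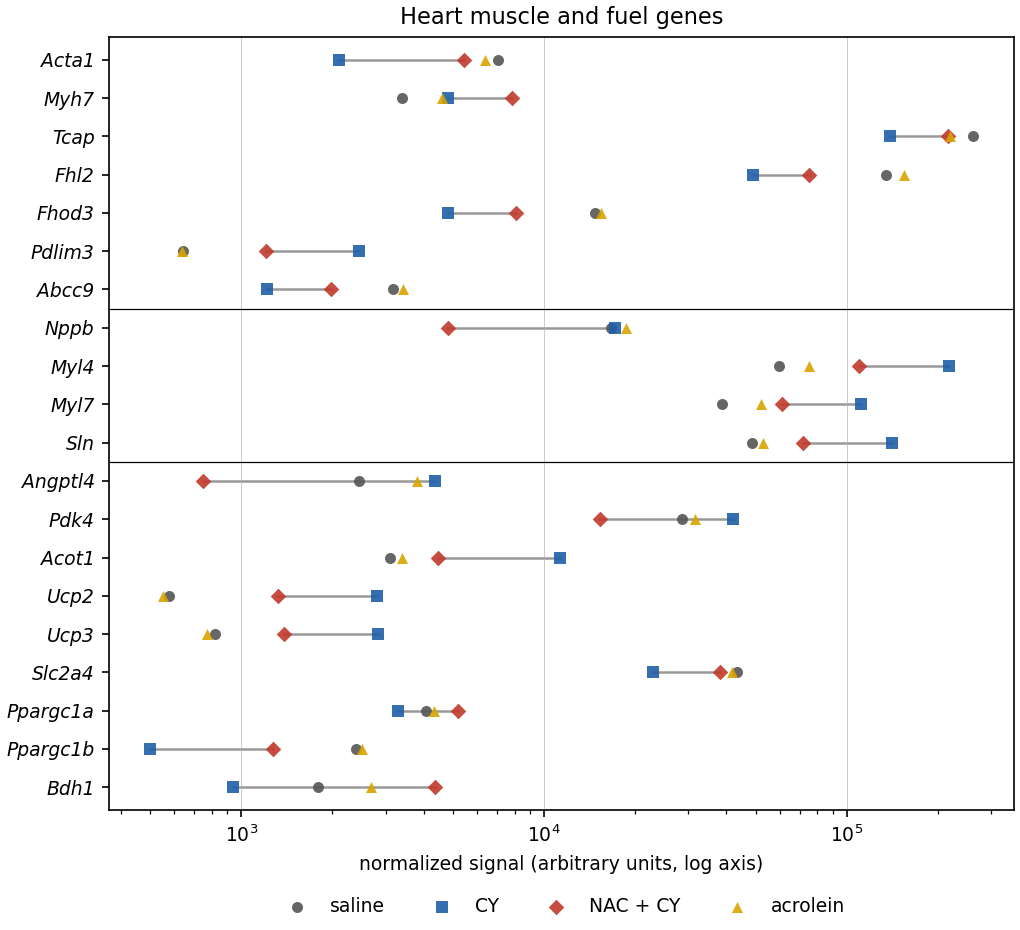
Normalized signal on the 4 arrays (horizontal log axis) of heart muscle and channel genes (top), Nppb and 3 atrial genes (middle) and fuel genes (bottom), 1 array per condition, with a bar joining CY and NAC + CY. Nppb lies at 4834 on NAC + CY against 16600 to 18610 on the others, and Acta1 rises from 2099 on CY to 5420 on NAC + CY.

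The thiol genes that NAC could bear on showed few calls. Of 17 measured genes of glutathione synthesis and cystine uptake, Chac1, which degrades glutathione, was higher (0.68, a call lost under normexp) and Dpep1, which splits cysteinylglycine, lower (-0.64). The median was 0.04. The subunits of the rate-limiting enzyme of glutathione synthesis were not called. Gclc had signals of 318 on NS, 679 on CY, 536 on NAC + CY and 334 on acrolein, and Gclm had 1397, 4533, 3036 and 1289. Both were lower on NAC + CY than on CY and above NS on both. Gclm passed the limit on Z (-2.42) and lay just outside the limit on the ratio (-0.58 on the log2 scale). The cystine transporter gene Slc7a11 was not above background on either array.

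Of 28 glutathione transferases and peroxidases, 2 were higher and 1 lower, with a median of 0.13. Gsta2 and Gsta4, alpha-class transferases that conjugate reactive aldehydes, were higher on NAC + CY than on CY, with log2 ratios of 1.18 and 0.65. Gsta2 had 185 on NS, 1477 on CY, 3337 on NAC + CY and 186 on acrolein. Gsta4 had 1139, 2624, 4108 and 1118. Both arrays with CY lay above those without it, and NAC + CY was the highest of the 4. The near-identical copies in this family can share signal. Gpx3, the extracellular glutathione peroxidase, was lower (-0.63), with 25752 on CY and 16600 on NAC + CY.

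Nrf2 target genes were divided. Of 35 measured, 2 were higher (Gsta2 and Gsta4) and 3 lower, and the median was -0.02. Hmox1, the enzyme that degrades haem, had 349 on NS, 8135 on CY, 4850 on NAC + CY and 325 on acrolein, a log2 ratio of -0.75. Srxn1, which repairs oxidised peroxiredoxins, had 1371, 4887, 3081 and 1217, a log2 ratio of -0.67, and the carbonyl reductase Cbr3 a log2 ratio of -0.86. For these NAC + CY lay between CY and the arrays without CY. Nqo1 (0.40), Txnrd1 (-0.28), Mgst1 (0.36), Ephx1 (0.22) and Osgin1 (-0.21) were not called. Txnip, which binds thioredoxin, was lower at -0.60, so that 2 of 25 genes of superoxide, catalase and thioredoxin enzymes were lower and none higher.

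The promoter of Srxn1 is shown because it holds 3 matches to the core of the antioxidant response element that Nrf2 binds, TGANNNNGC on either strand, in capitals. It lies at chr2:152105274-152105523 on the plus strand of GRCm38.p6, and the matches begin between 158 and 45 bases before the RefSeq start.
Srxn1: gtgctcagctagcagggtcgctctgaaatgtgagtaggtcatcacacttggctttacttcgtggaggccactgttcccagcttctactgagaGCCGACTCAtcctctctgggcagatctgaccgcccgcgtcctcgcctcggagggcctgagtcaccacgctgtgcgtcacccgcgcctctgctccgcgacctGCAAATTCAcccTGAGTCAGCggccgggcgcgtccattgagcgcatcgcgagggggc
Such a core is common, in 35.2% of the 32851 stretches of 250 bases. Gclm has 1 match in its stretch, and Cbr3 and Gsta2 have none. The letters were searched as a description only.

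Sulphur amino acid genes carried 4 higher calls of 24 and none lower, with a median of 0.24. Of these 4, Bhmt, Mat1a and Gnmt also stand on the hepatocyte list, and Mat1a was at least 5.10-fold higher from below background. Cdo1, the dioxygenase that oxidises cysteine, had 98.2 on NS, 295 on CY, 482 on NAC + CY and 45.6 on acrolein, a log2 ratio of 0.71. The enzymes that make cysteine from homocysteine, Cbs (0.43) and Cth (0.78), were not called. Among 25 aldehyde and alcohol dehydrogenases Aldh1l1 (1.30) was higher, and the retinaldehyde dehydrogenases Aldh1a1 (-0.74) and Aldh1a2 (-1.43), the second a mesothelial gene, were lower.

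**Figure D5:**
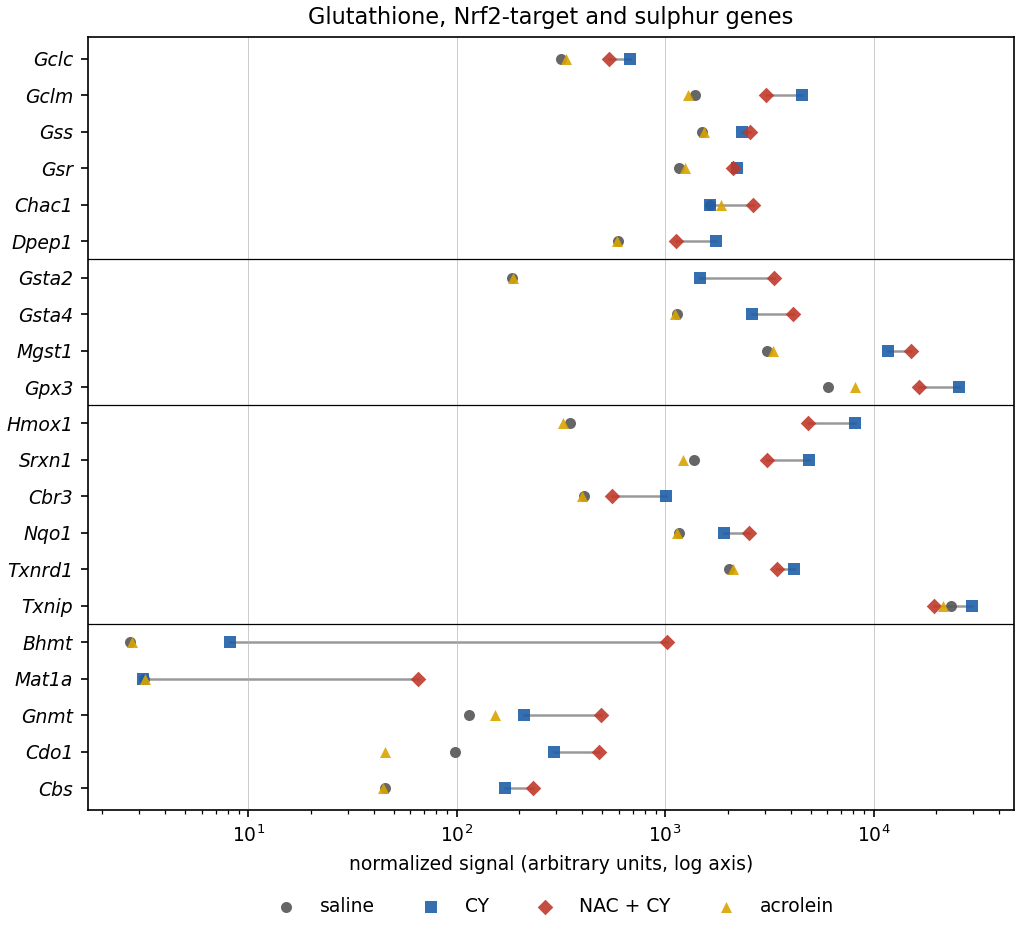
Normalized signal on the 4 arrays (horizontal log axis) of genes of glutathione synthesis, glutathione transferases and peroxidases, Nrf2 targets with Txnip, and sulphur metabolism, from top to bottom, 1 array per condition, with a bar joining CY and NAC + CY. Hmox1, Srxn1 and Cbr3 lie lower on NAC + CY than on CY, Gsta2 and Gsta4 higher, and Bhmt and Mat1a are above background on NAC + CY only.

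Genes of the response to DNA damage did not differ by the criteria. None of 30 p53 targets and none of 28 genes of crosslink and alkylation repair was called, with medians of 0.05 and 0.04. Cdkn1a, the p53-induced inhibitor of the cell cycle, had signals of 976 on NS, 5910 on CY, 4901 on NAC + CY and 1083 on acrolein. Gdf15, a secreted stress factor, had 156, 1212, 1473 and 235. Both were high on the 2 arrays with CY, whether or not NAC had been given. Mdm2 (0.02), Bax (-0.07) and Bbc3 (-0.18) were likewise not called, nor was any of 20 cytosolic heat shock genes or of 18 Bcl-2 family genes. With 1 array a side, a difference under the limits cannot be told from none. The limit on Z follows the spread of ratios among probes of similar signal, which differs with the signal and had a median SD of 0.41 log2 units.

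Some clock and immediate early genes were higher. Of 18 clock genes 3 were higher and none lower: Ciart, a repressor of the clock, at 1.66, Dbp, an output factor of the clock, at 0.90 and Per1 at 0.62. Dbp had 16291 on NS, 4595 on CY, 8590 on NAC + CY and 11885 on acrolein, and Ciart 149, 77.6, 245 and 69.5. Of 27 immediate early genes 3 were higher, the nuclear receptor Nr4a1 at 1.27 and the AP-1 subunits Fosb at 1.12 and Fosl2 at 0.68, of which normexp kept the call of Nr4a1. The hour of collection of each heart was not given in the sources used here. The promoter of Ciart is shown because it holds 3 copies of CACGTG, the E-box that clock activators bind, in capitals, which begin between 116 and 44 bases before the start. It lies at chr3:95882229-95882478 on the minus strand of GRCm38.p6.
Ciart: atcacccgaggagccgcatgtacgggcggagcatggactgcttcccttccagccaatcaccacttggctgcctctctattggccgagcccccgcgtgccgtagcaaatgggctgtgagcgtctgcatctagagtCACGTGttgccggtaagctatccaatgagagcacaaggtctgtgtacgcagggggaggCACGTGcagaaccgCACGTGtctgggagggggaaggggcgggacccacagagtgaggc
The motif reads the same on both strands and is found in 6.02% of the 32851 stretches. One of 2 stretches of Per1 holds it, and the stretch of Dbp does not.

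The calls were read again for genes above background on every array and outside all cell type lists, a step chosen after their values were seen. Those lists include muscle, vessel and connective tissue cells of the heart itself. Genes of liver and of other cell types that stand on no list remained, such as the keratin Krt14 (-2.71) on the lower side. Of 14018 genes that were well above background on all 4 arrays and stood on no cell type list, 152 (1.08%) were higher and 371 (2.65%) lower. The highest Z-scores among them belonged to Saa1, Bdh1, the apolipoprotein Apoc1 (2.18), haptoglobin Hp (1.32) and Mup2 (3.52), several of them liver genes too, and then to the prostaglandin D synthase Ptgds (1.21), Ppargc1b and Acta1. The lowest were Angptl4, the cystatin Cst9 (-4.39), Nppb, the tubulin-binding protein Tppp3 (-1.71) and Timp1, the tissue inhibitor of metalloproteinases. Tppp3 had 4232 on NS, 15459 on CY, 4724 on NAC + CY and 3852 on acrolein. It was high on the CY array only.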

How the data were processed

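Heart RNA of 4 conditions was hybridised to 1 single-colour Agilent mouse array each, all on 1 slide. Spot signals were read by the authors in Agilent Feature Extraction: the file headers give version 10.7.1.1 and the submitters' processing notes version 9.5.1.1. The deposited intensity of a spot is its processed signal after background subtraction, and the authors' deposited value table holds quantile-normalized signals of the same arrays. The age is 6 weeks in the labels, while the methods differ from the labels on it, and some passages of the study give a later time of collection than the labels do.

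Quantile normalization over the 4 arrays was run on log2 signals of 59305 spots, controls left out, and repeated spots of 1 probe then gave their mean. No spot was saturated. Probes were kept when well above background on the CY or NAC + CY array. Z-scores and ratios followed the authors' criteria, with a window of 200 probes chosen here. Genes were named through RefSeq (GRCm38.p6), 32994 probes by accession, 10224 by symbol and 520 by synonym; 12867 others were not counted as genes. Probe positions are those of the files (mm9). Promoter stretches are from the RefSeq table. Named genes are the 15 highest and 15 lowest Z-scores, members of the lists with the largest ratios and defining members, genes the study names, and 4 controls; Ahsg, Otop1, Camp, Bin1, Bdh1, Apoc1, Ptgds and some further list members were named after their values were seen. The members and the 57 gene lists, 1 of them the genes the study names, were chosen with earlier results of these data known. A few list members are counted but not reported by name here. Calling was tested on simulated data. The share of probes well above background was 49.6% on CY and 49.9% on NAC + CY; precision is limited by having 1 array a side. Alternatives covered normalization, background correction, filters, floor, window, criteria, choice of probe, the value table and tissue source. Python 3.11.15, numpy 2.4.6, pandas 2.3.3, matplotlib 3.10.9, R 4.3.3 and limma 3.58.1 (normexp, offset 50) were used.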

Additional observations from a re-analysis of the deposited data

How the results depend on the processing

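No paired analysis was possible because each condition has 1 array, and for the same reason no replicate could be left out. The 313 higher and 567 lower genes came to 132 and 269 at a Z-score of 3 and to 1373 and 1653 with a ratio of 1.5 alone, and a ratio of 2 alone gave 496 and 713. Under the other alternatives the counts were 235 to 403 higher and 432 to 688 lower, and without genes of 5 tissue sources 259 and 530. By brightest probe, genes above background on all 4 arrays numbered 178 of the 287 higher ones, and 152 without the cell type lists, alternatives chosen after seeing the data. Of the 287 higher and 529 lower genes, 196 and 368 were also called under 75th percentile scaling, the value table and normexp each, and none was called the opposite way. Normexp brought the medians of the hepatocyte, platelet and Wnt inhibitor lists to 1.1, -1.15 and -0.34. Median scaling moved the median of all genes to 0.11, so that log2 ratios shift upwards by about as much. The median over a gene's probes in place of the brightest gave -0.06 for Pip5k1a, and turned the sign of Tbp, which was not called, from -0.26 to 0.20. Of 137 named genes that were called, 7 lost the call under 75th percentile scaling, 3 in the value table and 12 under normexp, and none turned its direction. The median over a gene's probes moved the log2 ratios of 7 of the 137, among them Serpina1a (6.32), Alb (9.76), Bhmt (6.22) and Mup21 (3.22). Medians of 5 lists, -0.06 to 0.04 as reported, changed sign under some setting.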

Other observations

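Further lists held calls, in part of genes already counted above. The lower chemokines include the platelet genes Ppbp and Pf4, and the lower complement genes include the macrophage genes C1qb and Vsig4. Hmox1 and Alas2 are among the lower iron genes. Of 28 complement genes 7 were lower and 3 higher. C2 (-1.31), the properdin gene Cfp (-1.03), and C1s1 (-0.83) were among the lower ones, with C2 at 335 on NS, 807 on CY, 325 on NAC + CY and 160 on acrolein. The higher ones were Masp1 (1.17), the adipsin gene Cfd (0.81), which is also a fat gene, and Mbl2, a liver lectin, at least 3.66-fold. Of 33 chemokines and receptors 6 were lower, among them Ccl6 (-1.27), Ccl9 (-1.16) and the B cell attractant Cxcl13, at least 10.2-fold, and Cxcl12 (0.66) and Cxcl14 (0.78) were higher. Of 29 hepcidin, haem and iron genes 6 were lower, Hamp among them, and 2 higher: the iron exporter Slc40a1 had a log2 ratio of -0.77 and the haem carrier Slc48a1 one of -0.62, whereas Alas1, which starts haem synthesis outside red cells, was higher (0.70), at 31967 on NS, 18502 on CY, 29953 on NAC + CY and 29257 on acrolein. Scgb1a1, the secretoglobin of airway club cells, was at least 25.1-fold lower, with 329 on NS, 314 on CY, 10.5 on NAC + CY and 29.8 on acrolein; it was the 1 called gene of 7 measured on a lung and airway list.

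Several genes that were far lower on CY than on NS were not called between NAC + CY and CY. The apelin gene Apln had 569 on NS, 70.9 on CY, 85.6 on NAC + CY and 608 on acrolein, and its receptor Aplnr 198, 16.7, 24.9 and 200. The fractalkine receptor Cx3cr1 had 417, 28.2, 21.6 and 438. No gene was called among 22 genes of apelin, VEGF and angiopoietin signalling, with a median of 0.13. Plekhh1 (2.21) and Nrn1 (1.93), low on CY likewise, were higher on NAC + CY, with Nrn1 at 546, 95.9, 365 and 376 on the 4 arrays.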
